A study of Homo sapiens with 10 samples.

Results

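The BCL2 family decides whether the outer mitochondrial membrane is opened during intrinsic apoptosis, and 10 of its genes were described here in PC3 human prostate cancer cells. They were taken by symbol from 57445 gene identifiers, and all 10 matched an identifier and passed the filter on low counts. They are the survival genes BCL2, BCL2L1 and MCL1, the BH3-only genes BCL2L11, BBC3, PMAIP1, BMF and BIK, and the effector genes BAX and BAK1. RNA-seq had been carried out on 10 libraries, 2 in each of 5 groups. PC3 cells stably expressed the hairpin RNF2 shRNA1 or RNF2 shRNA2, were exposed to the compound PRT4165 or GW-516 for 48 hours, or stably expressed a Scramble shRNA. RNF2 encodes the catalytic ubiquitin ligase of Polycomb repressive complex 1, a silencer of developmental genes, and PRT4165 is described as blocking that catalytic activity. GW-516 is given by its code name, no dose of either compound is stated, and no vehicle-treated group is labelled, so both compounds were set against Scramble shRNA. What the compounds did cannot be told apart from what vehicle, vector or a separate culture did. All groups come from 1 cell line, and nothing in the labels says that libraries sharing a group were grown separately. The p-values thus measure only the spread between these libraries, which may be technical. That spread was estimated over the 5 groups together, so p-values may be too small for RNF2 shRNA2 and PRT4165, whose libraries agreed less well. In such bulk RNA, fewer cells with a transcript and less of it per cell cannot be told apart.

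Proteins of the family bind each other through a shared helix, the BH3 domain. Survival members hold effectors and BH3-only members in check, BH3-only members carry stress signals, and the effectors form the pore that releases cytochrome c. PMAIP1 (NOXA) binds MCL1 with preference, while BCL2L11 (BIM) and BBC3 (PUMA) bind all main survival members.

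Promoter windows of 300 bases, most of them upstream of the transcription start, were taken from RefSeq on GRCh38.p14 for 8 of the 10 genes, which leaves out MCL1 and BIK. Each was searched on both strands for TGACGT, the core of the cyclic AMP response element bound by ATF factors, for TGATGNAA, a composite element of C/EBP and ATF factors, and for GTAAACA, a FOXO element. The windows of PMAIP1 and BCL2L11 are printed because they alone among the 8 genes held a match, shown in capitals. PMAIP1 lies on the forward strand at chr18:59899746-59900045, and its match is to TGACGT on the reverse strand at positions -56 to -51 from the start. BCL2L11 lies on the forward strand at chr2:111120664-111120963, with GTAAACA at positions -223 to -217.
PMAIP1: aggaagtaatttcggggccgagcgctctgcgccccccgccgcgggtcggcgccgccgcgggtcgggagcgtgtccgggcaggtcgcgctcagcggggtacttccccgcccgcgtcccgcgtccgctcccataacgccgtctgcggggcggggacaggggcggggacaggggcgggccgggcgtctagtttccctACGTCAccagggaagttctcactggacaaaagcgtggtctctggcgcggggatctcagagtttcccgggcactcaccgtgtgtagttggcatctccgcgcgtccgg
BCL2L11: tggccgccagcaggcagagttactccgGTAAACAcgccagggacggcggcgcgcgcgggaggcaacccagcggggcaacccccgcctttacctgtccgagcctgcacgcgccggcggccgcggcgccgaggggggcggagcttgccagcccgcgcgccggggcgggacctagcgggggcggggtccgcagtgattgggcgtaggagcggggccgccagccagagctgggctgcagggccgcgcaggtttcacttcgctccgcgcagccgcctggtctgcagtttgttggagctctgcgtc
Of 35116 windows of this length 7.98% held TGACGT, 3.42% GTAAACA and 3.62% TGATGNAA. TGACGT was found in 1 of the 8 genes, GTAAACA in 1 and TGATGNAA in 0, and no match overlapped another. BCL2L1 and BMF had 2 windows each, so these counts are of genes while the shares are of windows. A match describes the letters of the window and is not evidence of binding.

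Levels per kilobase of exon (RPKM, from counts scaled to library size and the exon length given in the files) put PMAIP1 and MCL1 at ranks 1 and 2 of the family in every library. PMAIP1 stood at 206 and 203 RPKM in RNF2 shRNA1, 80.1 and 88.7 in RNF2 shRNA2, 64.7 and 62.5 in PRT4165, 72.6 and 74.3 in GW-516, and 67.0 and 66.5 in Scramble. MCL1 stood at 113 and 114 RPKM in RNF2 shRNA1, 62.5 and 64.2 in RNF2 shRNA2, 75.4 and 74.5 in PRT4165, 82.3 and 81.4 in GW-516, and 69.4 and 67.9 in Scramble. PMAIP1 was the higher of the pair in both hairpin groups, and MCL1 was the higher with both compounds and in Scramble. This order rests on the division by exon length (2235 bases for PMAIP1, 4218 for MCL1), as MCL1 had more counts than PMAIP1 in every library. The ratio of PMAIP1 to MCL1 in RPKM was 1.80 ± 0.028 in RNF2 shRNA1, 1.33 ± 0.070 in RNF2 shRNA2, 0.849 ± 0.014 in PRT4165, 0.897 ± 0.022 in GW-516 and 0.972 ± 0.010 in Scramble (SD, n = 2 each). BCL2L1, BAX, BAK1 and BCL2L11 held ranks 3, 4, 5 and 6 in all libraries. BCL2, BBC3, BMF and BIK made up the low end, with BIK at 0.139 to 0.833 RPKM from 9 to 67 counts.

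**Figure D1:**
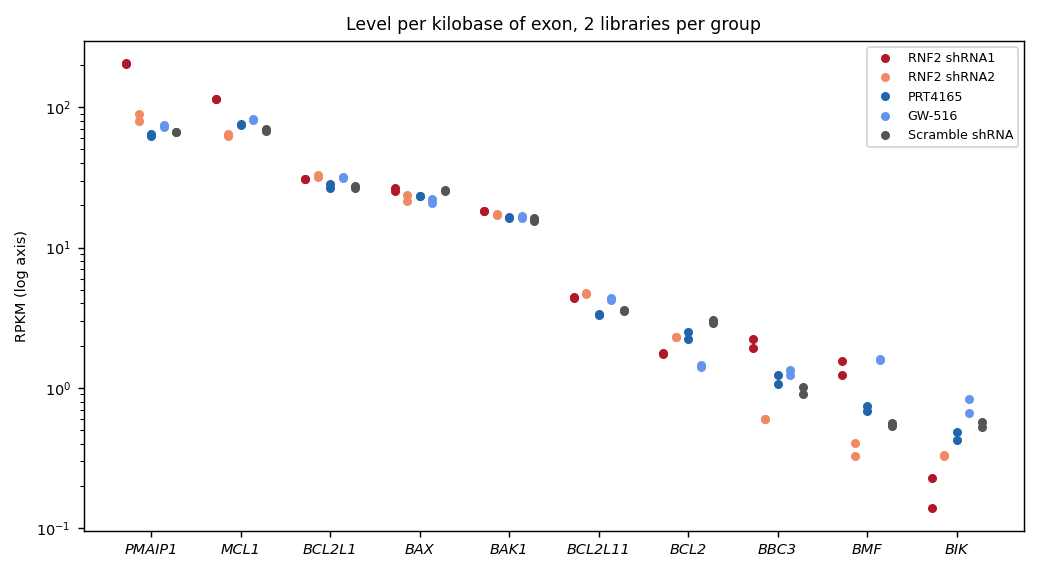
Level of the 10 genes in counts per kilobase of exon scaled to library size (RPKM, log axis), with 1 point per library and 2 libraries in each group, coloured by group. PMAIP1 and MCL1 stand above the other genes in every library, and PMAIP1 reaches 206 and 203 RPKM in RNF2 shRNA1.

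Total counts ran from 65877850 to 108380198 per library. RNF2 mRNA stood at 12.1 and 12.0 CPM (counts scaled to library size, TMM-normalized) in RNF2 shRNA1 and at 33.5 and 35.3 CPM in RNF2 shRNA2, against 30.6 and 28.3 CPM in Scramble. The libraries labelled RNF2 shRNA2 thus went against their label, so RNF2 shRNA2 names a label here and not a reduction of RNF2, and BMI1, another subunit of the complex, was low there (53.0 and 61.6 CPM, against 251 and 255 CPM in Scramble). Their file headers carry the number 20155 where those of RNF2 shRNA1 carry sh1, those of GW-516 carry Th4, and all 10 carry the prefix MDV3 in place of PC3. Both ends of a fragment were counted, and with counts halved for this the chi-square between paired libraries, divided by its degrees of freedom, came to 1.10 for GW-516 and for RNF2 shRNA1 and to 1.08 for Scramble, near sampling noise. It came to 6.11 for RNF2 shRNA2 and 3.44 for PRT4165. The header of RNF2 shRNA2 replicate 2, and no other, ends in L005only, and that library had 108380198 counts against 71352811 in replicate 1. The part of this in the agreement of the pair was not tested. Where summing each of the 3 close pairs to 1 sample ended a call of one of the 10 genes, this is given beside its value. Epithelial keratins and EPCAM were expressed throughout. STAT3, a gene deleted in PC3, had 0 counts in all 10 libraries (which allows up to 3 counts, or 0.0277 to 0.0455 CPM of the total, by counting error alone). Androgen receptor and luminal genes reached at most 0.334 CPM, neuroendocrine genes 0.0558, leukocyte genes 0.438 and endothelial genes 0.159. Of 3 fibroblast genes COL1A1 ran from 15.2 to 46.9 CPM, highest in GW-516, while DCN and LUM stayed at or below 0.243 CPM. The mitochondrial chromosome took 3.23% to 3.24% of counts in RNF2 shRNA1, 2.65% to 2.76% in RNF2 shRNA2, 2.46% to 2.67% in PRT4165, 2.25% to 2.26% in GW-516 and 2.47% to 2.51% in Scramble, and the part of this share or of COL1A1 in the results was not tested.

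RNF2 shRNA1 was the group with reduced RNF2 mRNA. Against Scramble, the BH3-only genes PMAIP1, BMF and BBC3 and the survival gene MCL1 rose while BCL2 and BIK fell. Of the 10 genes 7 were higher and 2 lower by edgeR at an adjusted p below 0.05, with 26.2% of all tested genes higher and 28.6% lower. The median log2 change was 0.26 over the 10 genes and -0.015 over all 18478 genes tested. In the libraries labelled RNF2 shRNA2, BCL2L11, PMAIP1, BCL2L1 and BAK1 rose, and BCL2, BBC3, BMF, BAX and MCL1 fell. These 4 higher and 5 lower genes stand beside 21.1% higher and 21.0% lower among all genes, and the median log2 was -0.15 over the 10 genes and 0.0086 over all genes.

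With PRT4165, MCL1 and BMF rose and BCL2 and BAX fell. These 2 higher and 2 lower genes stand beside 19.9% higher and 21.7% lower among all genes, shares near those of the family, and the median log2 was -0.017 over the 10 genes and -0.012 over all genes. With the near-identical pairs summed, 0 were higher and 1, BCL2, lower, beside 12.5% and 11.6% of all genes. With GW-516, BMF, BBC3, BCL2L11, MCL1, BCL2L1 and PMAIP1 rose, and BCL2 and BAX fell. These 6 higher and 2 lower genes stand beside 26.5% higher and 29.0% lower among all genes, and the median log2 was 0.24 over the 10 genes and -0.0025 over all genes. All 4 comparisons use the same Scramble libraries and so share their error.

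**Figure D2:**
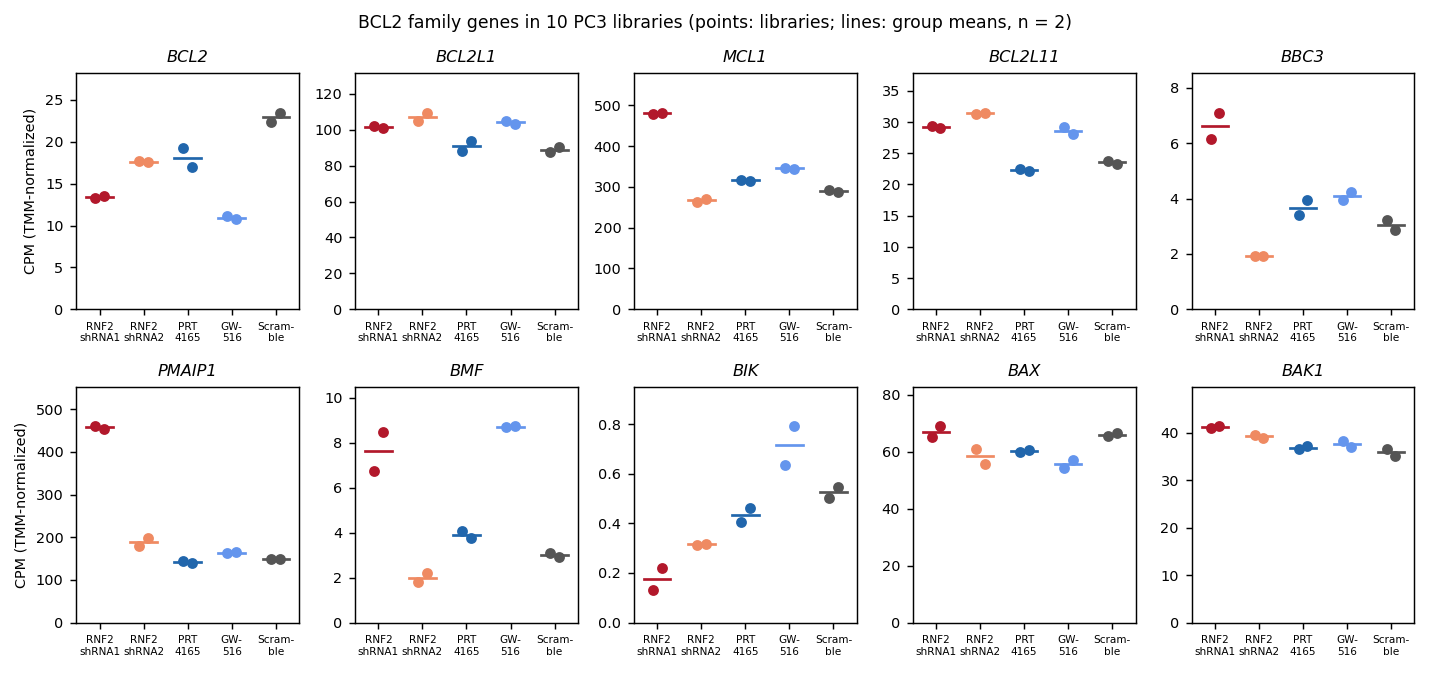
Level of each gene in CPM (TMM-normalized, axes from 0), with 1 point per library and a line at the group mean (n = 2). BCL2 lies below the Scramble libraries in all 4 other groups, and PMAIP1 stands apart in RNF2 shRNA1 at 461 and 454 CPM.

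**Figure D3:**
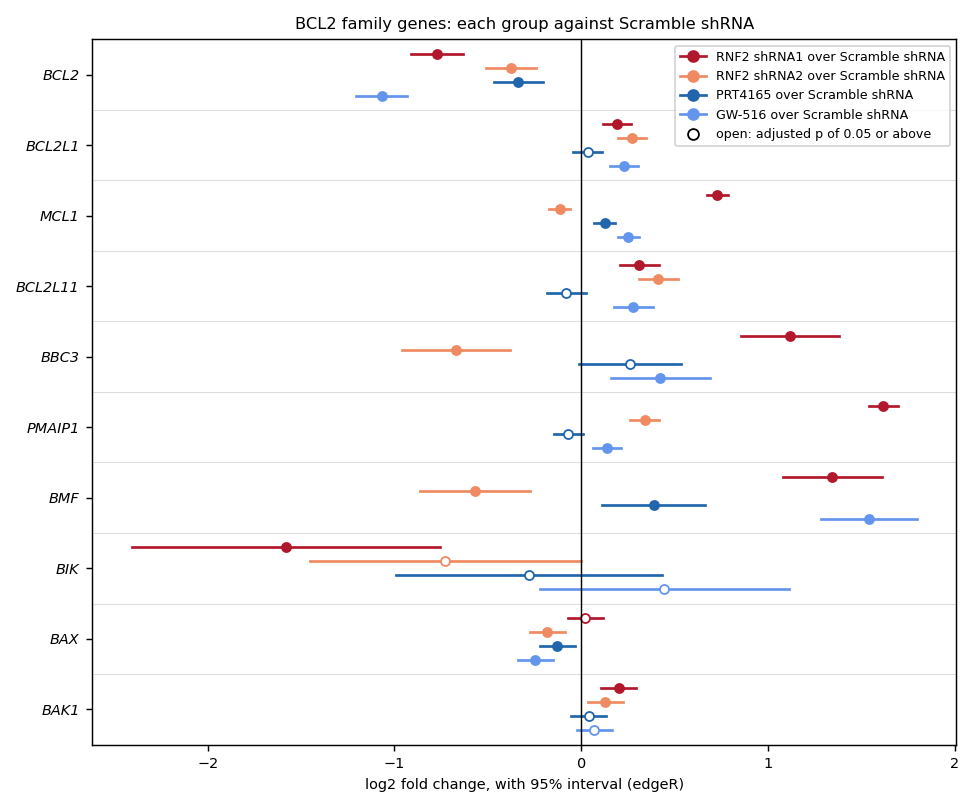
log2 fold change of each gene against Scramble shRNA with its 95% interval, by group. Filled points passed an edgeR adjusted p of 0.05, and MCL1, BBC3 and BMF have filled points on opposite sides of 0 for the 2 hairpin groups.

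Among the survival genes, BCL2 (ENSG00000171791.10, chromosome 18, 60790579 to 60987361, reverse strand, GRCh37), which gave the family its name, stood lower than Scramble in every other group. It had 13.3 and 13.5 CPM in RNF2 shRNA1, 17.7 and 17.6 in RNF2 shRNA2, 19.2 and 17.0 in PRT4165, 11.1 and 10.7 in GW-516, and 22.3 and 23.5 in Scramble. None of the 8 other libraries reached the lower Scramble library, and the PRT4165 and RNF2 shRNA2 ranges overlapped. BCL2 fell 2.10-fold with GW-516 (log2 -1.07, SE 0.067, edgeR adjusted p = 1.0e-12) and 1.71-fold in RNF2 shRNA1 (log2 -0.77, SE 0.067, edgeR adjusted p = 4.2e-10). It fell 1.30-fold in the libraries labelled RNF2 shRNA2 (log2 -0.38, SE 0.064, edgeR adjusted p = 3.3e-05) and 1.26-fold with PRT4165 (log2 -0.34, SE 0.065, edgeR adjusted p = 1.4e-04). BCL2 was called lower in these 4 comparisons under every alternative that was run.

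MCL1 (ENSG00000143384.8, chromosome 1, 150547032 to 150552066, reverse strand, GRCh37) encodes a short-lived survival protein. It had 479 and 482 CPM in RNF2 shRNA1, 264 and 271 in RNF2 shRNA2, 318 and 314 in PRT4165, 347 and 343 in GW-516, and 293 and 286 in Scramble. The ranges of all 5 groups were apart, in the order RNF2 shRNA1, GW-516, PRT4165, Scramble and RNF2 shRNA2. MCL1 rose 1.66-fold in RNF2 shRNA1 (log2 0.73, SE 0.027, edgeR adjusted p = 5.6e-17) and 1.19-fold with GW-516 (log2 0.25, SE 0.027, edgeR adjusted p = 1.7e-08). The smaller increase with PRT4165 (1.09-fold, log2 0.13, edgeR adjusted p = 5.1e-04) was lost with pairs summed (edgeR adjusted p = 0.102). The decrease in the libraries labelled RNF2 shRNA2 (1.08-fold, log2 -0.12, edgeR adjusted p = 0.0012) was lost in the same fit (edgeR adjusted p = 0.106).

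BCL2L1 (ENSG00000171552.8, chromosome 20, 30252255 to 30311792, reverse strand, GRCh37) encodes BCL-XL, the other main survival member, and varied least among the 3. Over all libraries it ran from 87.7 to 110 CPM, with the RNF2 shRNA2, GW-516 and RNF2 shRNA1 libraries above those of PRT4165 and Scramble, which overlapped. It rose in the libraries labelled RNF2 shRNA2 (log2 0.27, SE 0.037, edgeR adjusted p = 1.7e-06), with GW-516 (log2 0.23, SE 0.037, edgeR adjusted p = 9.5e-06) and in RNF2 shRNA1 (log2 0.19, SE 0.037, edgeR adjusted p = 1.0e-04). With PRT4165 the log2 change was 0.035 (95% interval -0.043 to 0.11, edgeR adjusted p = 0.50). The RPKM ratio of BCL2 to BCL2L1 was 0.0570 ± 0.00087 in RNF2 shRNA1, 0.0711 ± 0.0024 in RNF2 shRNA2, 0.0862 ± 0.011 in PRT4165, 0.0452 ± 0.00052 in GW-516 and 0.111 ± 0.0018 in Scramble (SD, n = 2 each).

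Among the BH3-only genes, PMAIP1 (ENSG00000141682.11, chromosome 18, 57567180 to 57571538, forward strand, GRCh37) had the largest fold increase of the family in RNF2 shRNA1. It had 461 and 454 CPM in RNF2 shRNA1, 179 and 198 in RNF2 shRNA2, 145 and 140 in PRT4165, 162 and 166 in GW-516, and 150 and 149 in Scramble. No groups overlapped, and RNF2 shRNA1 stood far above the next group, RNF2 shRNA2. PMAIP1 rose 3.07-fold in RNF2 shRNA1 (log2 1.62, SE 0.037, edgeR adjusted p = 1.4e-19) and 1.27-fold in the libraries labelled RNF2 shRNA2 (log2 0.34, SE 0.037, edgeR adjusted p = 1.0e-07). The 1.10-fold increase with GW-516 (log2 0.14, SE 0.037, edgeR adjusted p = 0.0030) was lost with pairs summed (edgeR adjusted p = 0.162). With PRT4165 the log2 change was -0.069 (95% interval -0.15 to 0.0085, edgeR adjusted p = 0.15).

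BMF (ENSG00000104081.9, chromosome 15, 40380091 to 40401093, reverse strand, GRCh37) encodes a BH3-only protein held on the cytoskeleton through dynein light chain, and had the widest range of group means, 4.38-fold. It had 6.73 and 8.48 CPM in RNF2 shRNA1, 1.79 and 2.19 in RNF2 shRNA2, 4.08 and 3.74 in PRT4165, 8.68 and 8.74 in GW-516, and 3.07 and 2.90 in Scramble. All groups were apart, with GW-516 highest and RNF2 shRNA2 lowest. BMF rose 2.91-fold with GW-516 (log2 1.54, SE 0.12, edgeR adjusted p = 1.2e-10) and 2.54-fold in RNF2 shRNA1 (log2 1.35, SE 0.13, edgeR adjusted p = 2.0e-09). It fell 1.48-fold in the libraries labelled RNF2 shRNA2 (log2 -0.57, SE 0.14, edgeR adjusted p = 0.0022). The 1.31-fold increase with PRT4165 (log2 0.39, SE 0.13, edgeR adjusted p = 0.023) lost its call when Scramble replicate 1 (edgeR adjusted p = 0.0557) or 2 (0.110) or PRT4165 replicate 1 (0.138) was left out and with pairs summed (0.0810). An antisense gene, BMF-AS1, shares 461 exon bases with BMF on the opposite strand and had at most 1 count in a library.

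BBC3 (ENSG00000105327.11, chromosome 19, 47724081 to 47736023, reverse strand, GRCh37) had 6.15 and 7.11 CPM in RNF2 shRNA1, 1.92 and 1.91 in RNF2 shRNA2, 3.41 and 3.94 in PRT4165, 3.95 and 4.24 in GW-516, and 3.24 and 2.86 in Scramble. RNF2 shRNA1 was highest and RNF2 shRNA2 lowest, with no overlap, and the closest GW-516 and PRT4165 libraries almost met. BBC3 rose 2.17-fold in RNF2 shRNA1 (log2 1.12, SE 0.13, edgeR adjusted p = 4.3e-08) and fell 1.59-fold in the libraries labelled RNF2 shRNA2 (log2 -0.67, SE 0.14, edgeR adjusted p = 3.6e-04). BBC3 rose with GW-516 (log2 0.42, SE 0.13, edgeR adjusted p = 0.0072). This call ended when Scramble replicate 2 (edgeR adjusted p = 0.0781) or GW-516 replicate 2 (0.0532) was left out or the pairs were summed (0.0816). With PRT4165 the log2 change was 0.26 (95% interval -0.0094 to 0.54, edgeR adjusted p = 0.12).

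BCL2L11 (ENSG00000153094.17, chromosome 2, 111876955 to 111926024, forward strand, GRCh37) had 29.4 and 29.0 CPM in RNF2 shRNA1, 31.2 and 31.5 in RNF2 shRNA2, 22.5 and 22.1 in PRT4165, 29.1 and 28.0 in GW-516, and 23.8 and 23.4 in Scramble. RNF2 shRNA1 and GW-516 overlapped, and both stood above Scramble. BCL2L11 rose in the libraries labelled RNF2 shRNA2 (1.33-fold, log2 0.41, SE 0.050, edgeR adjusted p = 2.4e-07), in RNF2 shRNA1 (1.24-fold, log2 0.31, SE 0.051, edgeR adjusted p = 1.1e-05) and with GW-516 (1.21-fold, log2 0.28, SE 0.050, edgeR adjusted p = 3.7e-05). With PRT4165 the log2 change was -0.079 (95% interval -0.19 to 0.027, edgeR adjusted p = 0.24). BIK (ENSG00000100290.2, chromosome 22, 43506754 to 43525718, forward strand, GRCh37), whose protein resides mainly at the endoplasmic reticulum, was barely expressed. It had 9 and 14 counts in RNF2 shRNA1, 22 and 34 in RNF2 shRNA2, 32 and 32 in PRT4165, 56 and 67 in GW-516, and 36 and 36 in Scramble. BIK fell 2.99-fold in RNF2 shRNA1 (log2 -1.58, SE 0.401, edgeR adjusted p = 0.0016), and its other changes against Scramble were not called, with log2 values from -0.73 to 0.44.

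The effector genes moved little. BAX (ENSG00000087088.15, chromosome 19, 49458072 to 49465055, forward strand, GRCh37) ran from 54.1 to 69.0 CPM and fell with GW-516 (log2 -0.25, SE 0.045, edgeR adjusted p = 5.2e-05) and in the libraries labelled RNF2 shRNA2 (log2 -0.18, SE 0.045, edgeR adjusted p = 0.0021). With PRT4165 its decrease (log2 -0.13, edgeR adjusted p = 0.025) lost its call when Scramble replicate 1 (edgeR adjusted p = 0.102) or 2 (0.226) or PRT4165 replicate 1 (0.114) or 2 (0.0799) was left out, with pairs summed (0.223) and by DESeq2 (0.0759). In RNF2 shRNA1 BAX overlapped Scramble (log2 0.023, 95% interval -0.071 to 0.12, edgeR adjusted p = 0.70). BAK1 (ENSG00000030110.8, chromosome 6, 33540329 to 33548019, reverse strand, GRCh37) ran from 35.0 to 41.5 CPM and rose in RNF2 shRNA1 (log2 0.20, SE 0.046, edgeR adjusted p = 5.4e-04). Its increase in the libraries labelled RNF2 shRNA2 (log2 0.13, edgeR adjusted p = 0.024) lost its call when Scramble replicate 2 (edgeR adjusted p = 0.169) or RNF2 shRNA2 replicate 1 (0.0833) or 2 (0.0617) was left out and with pairs summed (0.267). The call was also lost with no filter on low counts (edgeR adjusted p = 0.0590) and in a fit of the groups compared alone (0.0643). BAK1 stood at log2 0.070 with GW-516 and 0.040 with PRT4165, neither called. The copy BAK1P1 had 46 to 84 counts per library against 2305 to 4164 for BAK1, and reads shared between them could not be told apart.

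The hairpin groups were also set against each other. In the libraries labelled RNF2 shRNA2 against RNF2 shRNA1, 1 of the 10 genes was higher and 5 lower, beside 29.9% higher and 29.2% lower among all genes. BMF was 3.77-fold lower (log2 -1.91, SE 0.13, edgeR adjusted p = 3.6e-12), BBC3 3.46-fold lower (log2 -1.79, SE 0.13, edgeR adjusted p = 1.3e-11) and PMAIP1 2.42-fold lower (log2 -1.28, SE 0.037, edgeR adjusted p = 5.1e-18). MCL1 was 1.80-fold lower (log2 -0.85, SE 0.027, edgeR adjusted p = 2.3e-18) and BAX 1.15-fold lower (log2 -0.20, SE 0.045, edgeR adjusted p = 4.0e-04). BCL2 was 1.32-fold higher (log2 0.40, SE 0.067, edgeR adjusted p = 1.6e-05). BCL2L11 differed by log2 0.103 (95% interval 0.0020 to 0.20, edgeR adjusted p = 0.075), and BCL2L1 by 0.079 (95% interval 0.0026 to 0.15, edgeR adjusted p = 0.071), a value called without RNF2 shRNA2 replicate 1 (edgeR adjusted p = 0.0378). BIK differed by log2 0.85 (95% interval -0.0053 to 1.71, edgeR adjusted p = 0.082), and BAK1 by -0.073 (95% interval -0.17 to 0.019, edgeR adjusted p = 0.17).

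The compounds, both given for 48 hours at doses the labels do not state, were compared over the same 10 genes. In GW-516 against PRT4165, 5 genes were higher and 2 lower, beside 18.1% higher and 23.0% lower among all genes. BMF was 2.23-fold higher with GW-516 (log2 1.15, SE 0.12, edgeR adjusted p = 2.6e-08) and BCL2 1.66-fold lower (log2 -0.73, SE 0.067, edgeR adjusted p = 3.9e-09). BCL2L11 (log2 0.36, SE 0.050, edgeR adjusted p = 2.5e-06), PMAIP1 (log2 0.21, SE 0.037, edgeR adjusted p = 9.3e-05) and BCL2L1 (log2 0.19, SE 0.037, edgeR adjusted p = 1.3e-04) were higher. MCL1 was higher by log2 0.13 (edgeR adjusted p = 4.7e-04), a call lost with pairs summed (0.125). BAX was lower by a margin at the threshold (log2 -0.12, edgeR adjusted p = 0.040), a call lost without PRT4165 replicate 1 (edgeR adjusted p = 0.0794) or 2 (0.123), with GW-516 replicate 1 left out (0.353), after summing pairs (0.227), with the replicate number as a block (0.0507) and under 4 other alternatives. BBC3 differed by log2 0.16 (95% interval -0.099 to 0.42) and BAK1 by 0.030 (95% interval -0.063 to 0.12), neither called. BIK differed by log2 0.72 (95% interval 0.047 to 1.401, edgeR adjusted p = 0.082).

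**Figure D4:**
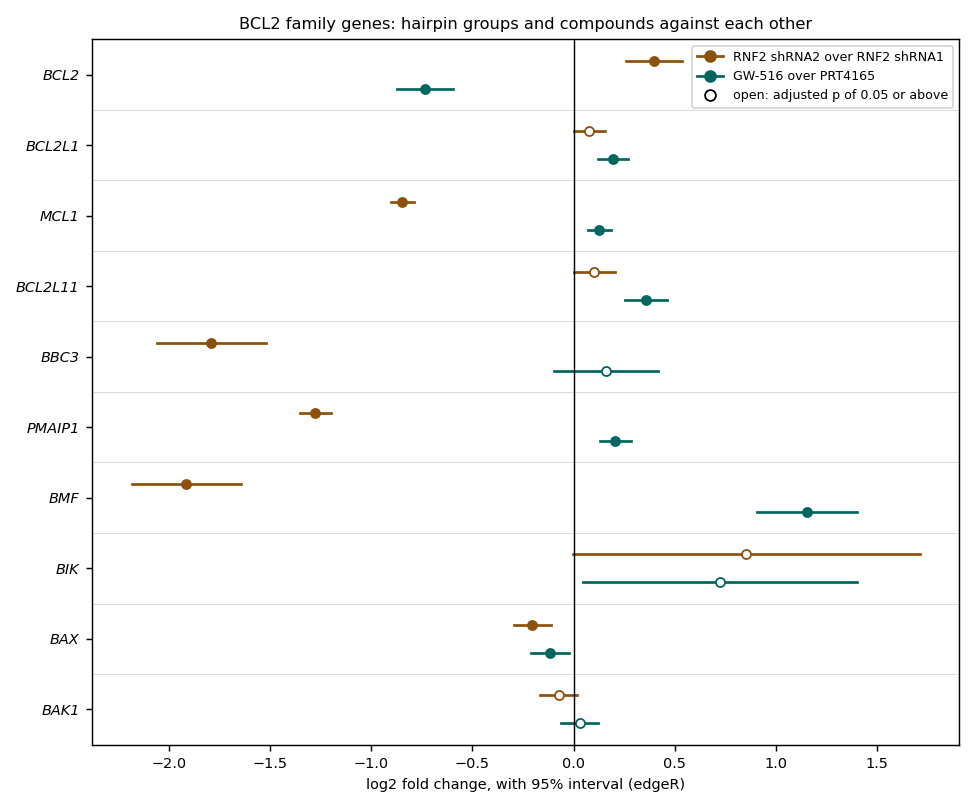
log2 fold change of each gene between the hairpin groups (RNF2 shRNA2 over RNF2 shRNA1) and between the compounds (GW-516 over PRT4165), with 95% intervals; filled points passed an edgeR adjusted p of 0.05. BMF lies at -1.91 between the hairpin groups and at 1.15 between the compounds.

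Beyond the 10 genes, 4 lists of apoptosis genes were followed against Scramble. The calls of these genes under the alternatives were not examined, so none is marked as kept or lost. Their counts stand beside the same shares of all genes as above, 26.2% higher and 28.6% lower in RNF2 shRNA1, 21.1% and 21.0% in the libraries labelled RNF2 shRNA2, 19.9% and 21.7% with PRT4165, and 26.5% and 29.0% with GW-516. The medians over all genes lay between -0.015 and 0.0086.

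Of 13 other BCL2 family genes 11 passed the filter. In RNF2 shRNA1 2 were higher and 7 lower (median log2 -0.49), and in the libraries labelled RNF2 shRNA2 3 were higher and 3 lower (median 0.092). With PRT4165 2 were higher and 4 lower (median -0.078), and with GW-516 5 were higher and 2 lower (median 0.103). The mitophagy receptor BNIP3 had a mean of 58.5 CPM in RNF2 shRNA1, against 124 CPM in Scramble (log2 -1.08, SE 0.036, edgeR adjusted p = 6.3e-18). BNIP3 was also lower in the libraries labelled RNF2 shRNA2 (log2 -0.52) and with PRT4165 (-0.11), and was higher with GW-516 (0.24), each called. Its relative BNIP3L stood at log2 -0.44 in RNF2 shRNA1, -0.39 in RNF2 shRNA2, -0.078 with PRT4165 (not called) and 0.10 with GW-516. BID, the BH3-only protein that links death receptors to mitochondria, was called lower in all 4 comparisons, at log2 -0.78, -0.28, -0.16 and -0.14 in the same order.

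BCL2A1, an NF-kB-induced survival gene, had 0.469 and 0.515 CPM in RNF2 shRNA1, 1.34 and 1.07 in RNF2 shRNA2, 2.27 and 2.71 in PRT4165, 3.34 and 2.89 in GW-516, and 0.391 and 0.608 in Scramble. The RNF2 shRNA1 libraries lay between those of Scramble, and the other groups lay above both. BCL2A1 rose 5.00-fold with PRT4165 (log2 2.32, SE 0.23, edgeR adjusted p = 7.1e-09), 6.26-fold with GW-516 (log2 2.65, SE 0.22, edgeR adjusted p = 1.9e-10) and 2.40-fold in the libraries labelled RNF2 shRNA2 (log2 1.26, SE 0.24, edgeR adjusted p = 1.3e-04). HRK, a BH3-only gene expressed below 1 CPM in every library, fell with PRT4165 (log2 -1.71, SE 0.39, edgeR adjusted p = 9.9e-04), with GW-516 (log2 -1.57, SE 0.38, edgeR adjusted p = 0.0010) and in RNF2 shRNA1 (log2 -0.91, SE 0.37, edgeR adjusted p = 0.041). HRK was not called in the libraries labelled RNF2 shRNA2 (log2 0.11).

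Of 21 caspase, apoptosome and inhibitor-of-apoptosis (IAP) genes, all tested, 7 were higher and 10 lower in RNF2 shRNA1 (median log2 -0.056), and 6 were higher and 5 lower in the libraries labelled RNF2 shRNA2 (median 0.016). With PRT4165 5 were higher and 8 lower (median -0.086), and with GW-516 4 were higher and 11 lower (median -0.071). XIAP, which blocks caspases directly, was called higher in all 4 comparisons, at log2 0.52 in RNF2 shRNA1, 0.71 in RNF2 shRNA2, 0.43 with PRT4165 and 0.27 with GW-516 (SE 0.038 each). DFFA, the inhibitor of the caspase-activated DNase, was called lower in all 4, at log2 -0.37 in RNF2 shRNA1, -0.33 in RNF2 shRNA2, -0.36 with PRT4165 and -0.45 with GW-516. BIRC3, an IAP of NF-kB signalling, rose 2.15-fold in RNF2 shRNA1 (log2 1.11, SE 0.064, edgeR adjusted p = 2.1e-13) and fell with GW-516 (log2 -0.23, SE 0.067, edgeR adjusted p = 0.0046). It was not called in RNF2 shRNA2 (log2 -0.092) or with PRT4165 (-0.0089). BIRC5 (survivin), a mitotic IAP, fell with GW-516 (log2 -0.63, SE 0.030, edgeR adjusted p = 4.8e-15) and with PRT4165 (log2 -0.23, SE 0.029, edgeR adjusted p = 4.5e-07). It was not called in RNF2 shRNA1 (log2 -0.056) or RNF2 shRNA2 (0.016).

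A list of 14 death receptor pathway genes joined receptors with ligands, adaptors, a kinase, caspases and a caspase-8 inhibitor, and 13 were tested. Its counts are thus not counts of receptors alone. In RNF2 shRNA1 3 were higher and 3 lower (median log2 0.047), and in the libraries labelled RNF2 shRNA2 3 were higher and 3 lower (median -0.062), shares near or below those of all genes. With PRT4165 6 were higher and 1 lower (median 0.29), and with GW-516 9 were higher and 1 lower (median 0.32). The TNF receptor gene TNFRSF1A rose with PRT4165 (log2 0.43, SE 0.032, edgeR adjusted p = 7.3e-11), with GW-516 (log2 0.404, SE 0.032, edgeR adjusted p = 1.0e-10) and in RNF2 shRNA1 (log2 0.20, SE 0.033, edgeR adjusted p = 1.1e-05). TNFRSF1A fell in the libraries labelled RNF2 shRNA2 (log2 -0.18, SE 0.033, edgeR adjusted p = 7.8e-05). TNFRSF10B, a TRAIL receptor, was called higher in all 4 comparisons, at log2 0.43 in RNF2 shRNA1, 0.17 in RNF2 shRNA2, 0.098 with PRT4165 and 0.19 with GW-516. CFLAR, which encodes the caspase-8 inhibitor FLIP, rose 1.42-fold in RNF2 shRNA1, 1.23-fold with PRT4165 and 1.22-fold with GW-516, and stood at log2 -0.066, not called, in RNF2 shRNA2. FADD fell in RNF2 shRNA1 only (log2 -0.48). RIPK1 fell in RNF2 shRNA1 (log2 -0.30), with PRT4165 (-0.24) and with GW-516 (-0.20). FAS fell in RNF2 shRNA2 (log2 -0.43) and rose with PRT4165 (0.32). CASP8 fell in RNF2 shRNA1 (log2 -0.19) and rose in RNF2 shRNA2 (0.25). TNFRSF10A rose in RNF2 shRNA2 (log2 0.24) and with GW-516 (0.32).

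A list of 20 genes joined transcription factors, turnover enzymes and partners of family members with stress response genes, and 18 were tested. In RNF2 shRNA1 11 were higher and 4 lower (median log2 0.34), and in the libraries labelled RNF2 shRNA2 8 were higher and 5 lower (median 0.27). With PRT4165 7 were higher and 3 lower (median 0.059), and with GW-516 9 were higher and 7 lower (median 0.096). The stress-induced transcription factor ATF3 was called higher in all 4, at log2 1.68 in RNF2 shRNA1, 0.796 in RNF2 shRNA2, 0.25 with PRT4165 and 1.67 with GW-516. DDIT3 (CHOP), another such factor, was called in 3, at log2 1.29 in RNF2 shRNA1, 0.27 in RNF2 shRNA2 and 0.92 with GW-516, and stood at 0.064 with PRT4165. ATF4, which acts upstream of both in the integrated stress response, was higher in RNF2 shRNA1 (log2 0.78) and RNF2 shRNA2 (0.26) and lower with PRT4165 (-0.17), each called, and stood at -0.0054 with GW-516.

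CHAC1, a glutathione-degrading enzyme of the same response, stood at log2 2.25 in RNF2 shRNA1, 0.756 in RNF2 shRNA2, 0.090 with PRT4165 (not called) and 1.22 with GW-516. The pseudokinase gene TRIB3 stood at log2 0.64 in RNF2 shRNA1, 0.82 in RNF2 shRNA2, -0.048 with PRT4165 (not called) and 0.53 with GW-516. HUWE1, a ubiquitin ligase for MCL1, was higher with PRT4165 (log2 0.34) and lower in RNF2 shRNA1 (-0.13), RNF2 shRNA2 (-0.25) and GW-516 (-0.18), each called. The cell cycle factor E2F1 was called lower in all 4, at log2 -0.61 in RNF2 shRNA1, -0.42 in RNF2 shRNA2, -0.41 with PRT4165 and -0.79 with GW-516.

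**Figure D5:**
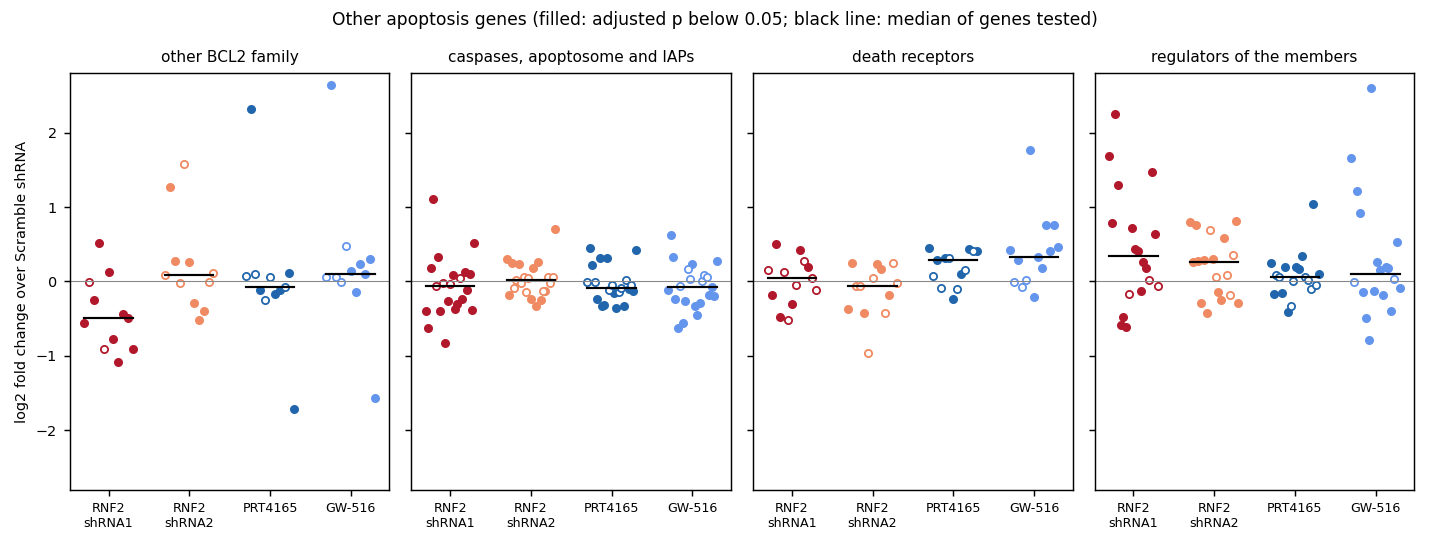
log2 fold change over Scramble shRNA of the tested genes of 4 other lists in each group, with filled points where the edgeR adjusted p was below 0.05 and a black line at the median. In the list of other BCL2 family genes the median lies at -0.49 in RNF2 shRNA1, and the highest point with each compound is BCL2A1.

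The genes most like BMF and BIK, the members with the widest range of group mean log2 CPM, were sought among genes with a symbol and a mean of at least 5 CPM, by Pearson correlation of log2 CPM over the 10 libraries. These values describe libraries that share groups and depth. Nearest to BMF, as the highest of 10615 genes searched, were CDR2 (r = 0.990), TAX1BP1 (0.985) and MAP3K14-AS1 (0.985). CDR2 averaged 78.7 CPM in RNF2 shRNA1, 61.4 in RNF2 shRNA2, 70.5 in PRT4165, 80.5 in GW-516 and 66.0 in Scramble, the same order of groups as BMF over a narrower range. Nearest to BIK, as the highest of 10616 genes searched, were CYB5R1 (r = 0.980), CENPT (0.972) and PNKD (0.972). BIK itself had only 9 to 67 counts per library.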

How the data were processed

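RNA was measured in 10 PC3 libraries, 2 per label group. The authors deposited a table of raw counts for each library. These were made with featureCounts 1.4.3-p1 on GENCODE 18, strand option 2 and no read-pair option, per the file headers, so both ends of a fragment were counted. The submitters' processing notes name hg19 (GRCh37), STAR and DESeq2 1.8.1 without saying what each tool did. Of 57445 identifiers 89.6% matched a symbol, and 1 listed gene, PECAM1, matched none.

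The main test was edgeR 4.0.16 in R 4.3.3, with TMM factors (0.972 to 1.05), filterByExpr at a minimum count of 10, 1 coefficient per group and 5 residual degrees of freedom. Its robust quasi-likelihood F test is two-sided, with Benjamini-Hochberg adjustment across 18478 genes. Standard errors are the absolute log2 change divided by the square root of F, and 95% intervals use the t distribution. Called means an adjusted p below 0.05. CPM and RPKM use TMM-scaled library sizes. Alternatives were RLE factors, DESeq2 1.42.0, limma-voom (3.58.1), no filter, the groups compared alone, a replicate block, near-identical pairs summed, counts halved and each library left out. Leaving both RNF2 shRNA2 libraries out of the fit was an alternative chosen after seeing the data.

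The scripts were tested on simulated data with known changes in RNF2 shRNA1 against Scramble. Of 50 genes changed at each size, 33 were recovered at 1.25-fold, 43 at 1.5-fold, 49 at 2-fold and 50 at 3-fold. Among 17860 genes in that test, 29 that had not been changed were called. The members, lists and named genes were chosen with earlier results of these data known. Up to 3 called genes of smallest adjusted p were picked per list and comparison with Scramble. Of these, BCL2L13, BCL2L2, BOK, AIFM1, BIRC6, CASP2 and MYC were picked but are not described above. Described were the 10 members, RNF2 and BMI1, the remaining picked genes, and 3 genes most like each of 2 members. Other genes, named after their values were seen, are marker genes and BAK1P1.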

Additional observations from a re-analysis of the deposited data

Results flagged for a closer look

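The hairpin groups moved 3 genes of the family in opposite directions against the Scramble libraries they share, each called in both, and the direct test of RNF2 shRNA2 against RNF2 shRNA1 was called for each. MCL1 differed by log2 -0.85 (SE 0.027, edgeR adjusted p = 2.3e-18), and its decrease in RNF2 shRNA2 against Scramble was lost with the near-identical pairs summed (edgeR adjusted p = 0.106). BBC3 differed by log2 -1.79 (SE 0.13, edgeR adjusted p = 1.3e-11). BMF differed by log2 -1.91 (SE 0.13, edgeR adjusted p = 3.6e-12). In the 3 cases both RNF2 shRNA2 libraries lay below both Scramble libraries and both RNF2 shRNA1 libraries above them. RNF2 mRNA was low in RNF2 shRNA1 and BMI1 mRNA in the libraries labelled RNF2 shRNA2, and the part of either in these differences was not tested.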

How the results depend on the processing

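Of 760 repeats of the member tests over all alternatives, 725 kept direction and side of the threshold, 32 lost the call, 2 gained it and 1 changed sign. The sign change was BAX in RNF2 shRNA1 without RNF2 shRNA1 replicate 2 (log2 -0.0029, and 0.065 without RNF2 shRNA1 replicate 1), uncalled in both. The number of family genes called moved by over 1.5 times for PRT4165 against Scramble, from 4 to 1 with pairs summed. Leaving out a library gave 2 to 3 there, with 2 without Scramble replicate 1, without Scramble replicate 2 or without PRT4165 replicate 1. Over the other comparisons leaving out a library gave 9 in RNF2 shRNA1, 8 to 9 in RNF2 shRNA2, 7 to 8 with GW-516, 6 to 7 between hairpins and 6 to 7 between compounds. With the replicate number as a block the counts were 9, 9, 4 and 8 against Scramble, 6 between hairpins and 6 between compounds, where BAX lost its call (edgeR adjusted p = 0.0507). The labels give the number no meaning, and deviations of same-numbered libraries correlated at -0.209 to 0.0409 over 10 pairs of groups. BIK between compounds was called with counts halved (edgeR adjusted p = 0.0347). Depth limits BIK most, at 9 to 67 counts.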
